A study of Gossypium hirsutum with 24 samples.

Results

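The change of the drought effect between the day of flowering and 5 days later was measured in cotton bolls, the young fruits in which the seed fibre starts to grow. It used 12 of the 24 arrays of the study, all those of 5 and 0 dpa (days post anthesis, counted from the opening of the flower), and 23973 of the 24132 probe sets of the array, 159 control probe sets being left out. For each probe set the change is the drought effect at 5 dpa (drought minus control) minus the drought effect at 0 dpa, on the log2 scale. A change of 1 is thus a ratio of fold changes of 2. A positive change is called a rise and a negative one a fall, and either can come from the effect at 5 dpa, from that at 0 dpa or from both.

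The plants were field-grown upland cotton, Gossypium hirsutum cv. Bikaneri Nerma, and RNA was hybridised to the Affymetrix cotton GeneChip. There were 4 groups of 3 arrays, labelled as biological replicates: drought at 5 dpa, control at 5 dpa, drought at 0 dpa and control at 0 dpa. Drought plants stood in 6 plots from which irrigation was withheld at peak flowering and from which a rain-out shelter kept the rain, and their bolls were taken once soil moisture had dropped to 19.5%, which was 50% of that in the control plots and was reached after 18 to 19 days. Control plants stood in 6 further plots of the same field. The sources used here do not say which plots or plants went into a replicate. The extraction notes name bolls at both stages, whereas the collection note for 0 dpa names leaf beside bolls.

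In the deposited values the median of the 6 arrays of a stage was 0 at every probe set. Drought can thus be set against control at each stage, and these differences against each other, while transcript levels and their course in control plants are lost. The tissue label could therefore not be checked against the level of marker genes. As whole bolls were measured, fewer cells of a type and less RNA per cell cannot be told apart.

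Drought in plants raises abscisic acid and sets off transcription factors of the NAC, AP2/ERF, MYB, WRKY and zinc finger families, along with protective proteins and peroxidases. Between flowering and 5 dpa the boll passes from the open flower to growing ovules, on whose surface single epidermal cells have begun to elongate into fibre. That elongation needs loosening of the primary wall, microtubules, membrane lipids and sugar supply, and the growth hormones ethylene, auxin, gibberellin and brassinosteroid act in it.

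By limma with Benjamini-Hochberg adjustment, the drought effect changed at 12768 of the 23973 probe sets (53.3%), with 5320 rises (22.2%) and 7448 falls (31.1%). At least 2-fold, there were 1779 rises (7.42%) and 1552 falls (6.47%). At 5 dpa 13963 probe sets (58.2%) differed between drought and control plants, against 10606 (44.2%) at 0 dpa. Across the 23973 probe sets the effect at 5 dpa had little in common with that at 0 dpa (Pearson r = 0.14, Spearman rho = 0.17), although probe sets are not independent and each stage's effects share their arrays. The median change was −0.09 and its median standard error (SE) 0.13. Replicate arrays differed from each other with a standard deviation of 0.140 to 0.181.

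**Figure D1:**
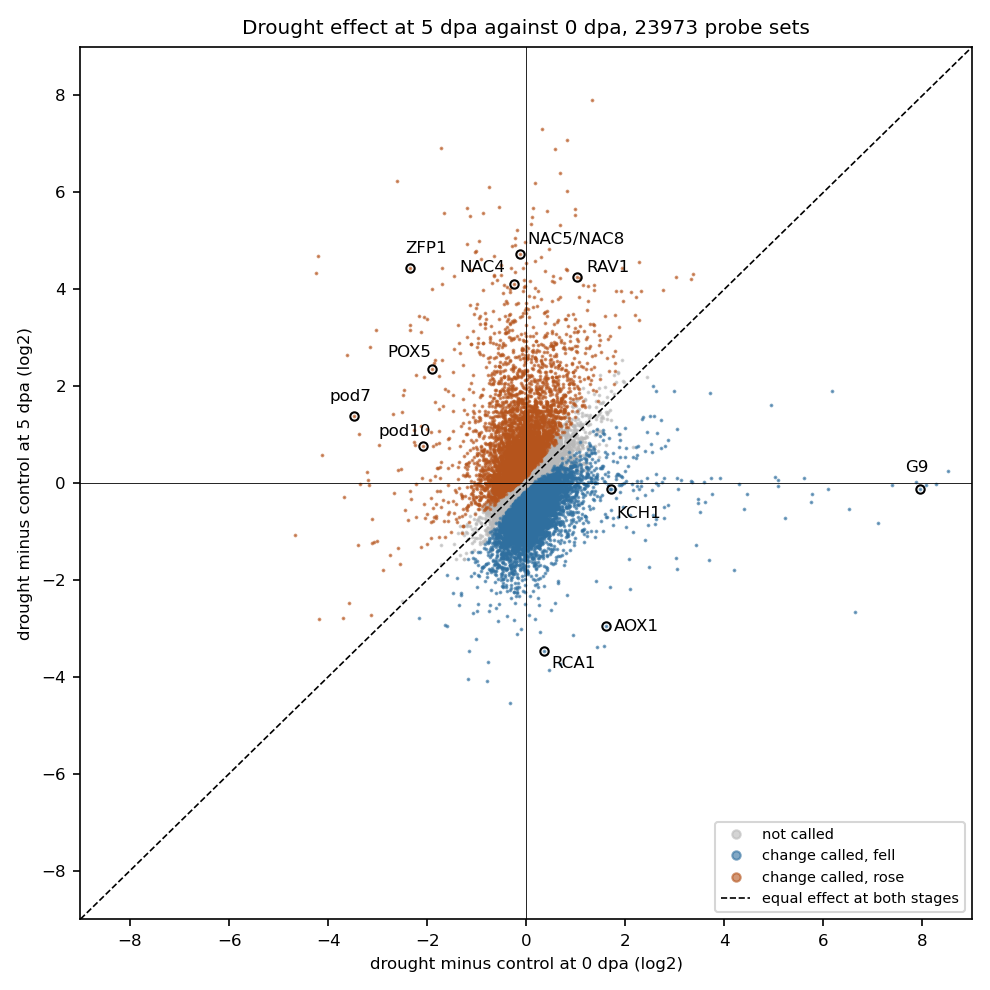
Drought minus control at 5 dpa (vertical axis, log2) against drought minus control at 0 dpa (horizontal axis, log2) for 23973 probe sets, with colour for the direction of a called change and a dashed line where both effects are equal. The larger called rises, above the line, mostly have the larger effect at 5 dpa. The probe sets furthest below it, G9 among them, mostly have the larger effect at 0 dpa.

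The scale of the arrays bears on the smaller changes. Poly-A spike controls, bacterial RNAs put into each sample and read by 12 probe sets, stood 0.25 lower in drought than in control arrays at 5 dpa and 0.20 higher at 0 dpa, without overlap at either stage. Scaling each array on them adds 0.46 to every change and moves the median over all probe sets to 0.37. It also alters the spread between replicate arrays, so that a call can be lost without a smaller effect. The share of rises among the calls was then 84.6%, in place of 41.7%, with 7897 rises (32.9% of all probe sets) and 1441 falls (6.01%). A fall smaller than 0.46 therefore has no settled direction. Medians of gene lists that turned with that scaling include those of MYB factors (−0.25, against 0.21 on the poly-A scale), antioxidant enzymes (−0.39 and 0.07), calcium signalling (−0.06 and 0.40) and sucrose synthases (−0.29 and 0.17). Hybridisation spikes overlapped between drought and control at both stages. Between 5′ and 3′ probe sets of cotton's own control transcripts, a gauge of how intact the RNA is, the difference stood 0.30 higher in drought at 5 dpa and 0.66 higher at 0 dpa, again without overlap. Its part in the results was tested only as a covariate in the fit. Without overlap between drought and control, that covariate takes precision from the drought effects.

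Most of the larger rises had the larger of their 2 effects at 5 dpa, though many drew on both stages. Of the 1779 probe sets with a rise of at least 2-fold, 1548 (87.0%) had the larger effect at 5 dpa, and so had 1148 (74.0%) of the 1552 with such a fall, beside 63.1% of all probe sets. At 827 of the 1779 rises drought was called both higher at 5 dpa and lower at 0 dpa, so that both stages added to the change. The extreme falls were different: only 16 of the 66 falls of at least 8-fold (24.2%) had the larger effect at 5 dpa, against 219 of the 243 rises of that size (90.1%). The remaining 50 extreme falls had their larger effect at 0 dpa.

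The annotation gave a single gene for 697 probe sets, and 243 genes had an informative name. Of these 243 genes 79 rose, 103 fell and 61 were not called (median −0.14), beside 53.3% called over all probe sets. Named genes were thus called more often than the array as a whole, and the gene lists below were drawn from them. The shares over all probe sets given beside those lists do not allow for this. All gene positions are those of the assembly Gossypium_hirsutum_v2.1. Values per gene are log2 differences with the SE of the fit and n = 3 arrays per group. The naming rule takes only genes called by limma, so that all 69 selected genes were called follows from the rule. Their adjusted p-values were at most 0.010, and at most 4.27e-07 for the 12 largest rises and 12 largest falls. As log2 values are centred on the median of 6 arrays, the values of a gene with separate groups lie about evenly on either side of 0, and the distance between the groups is what carries information.

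Of the 12 largest rises of named genes 8 belonged to genes on the lists of transcription factors and 3 to peroxidase genes. The largest was that of ZFP1, a zinc finger protein gene (LOC107933034, chromosome D01, 1495290 to 1496707). Its 3 values were 2.32, 2.13 and 2.27 in drought and −2.24, −2.13 and −2.23 in control bolls at 5 dpa, and −1.19, −1.23 and −1.13 in drought and 1.19, 1.14 and 1.13 in control bolls at 0 dpa. The groups were far apart at both stages and in opposite order, with drought the higher at 5 dpa and the lower at 0 dpa. ZFP1 was 21.7-fold higher in drought at 5 dpa and 5.06-fold lower at 0 dpa, so that its effect changed by 6.78 ± 0.12 (SE), a ratio of fold changes of 110. The other genes on the zinc finger list were Di19-2, of a drought-induced family, with a rise of 0.48 ± 0.08, and Di19-1, which did not pass (0.12 ± 0.14). The gene GZFP is not on that list. Its change was called, with drought called higher at 5 dpa only.

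NAC factors, a plant family with known regulators of senescence and of the response to drought, gave 4 rises among 6 genes, with a median change of 3.14, beside 22.2% rises and a median of −0.09 over all probe sets. NAC5/NAC8 (LOC107892421, chromosome A11, 101177311 to 101178925) had values of 2.36, 2.35 and 2.33 in drought and −2.43, −2.40 and −2.33 in control bolls at 5 dpa, against −0.02, −0.11 and −0.14 in drought and 0.02, 0.06 and 0.05 in control bolls at 0 dpa. Its change of 4.86 ± 0.25 came from the later stage, as the effect was 4.73 at 5 dpa and −0.13 at 0 dpa, where it did not pass the test. NAC4 (LOC107916546, chromosome D01, 7634356 to 7635974) behaved alike, with 2.06, 2.11 and 2.02 in drought and −2.08, −2.02 and −2.02 in control bolls at 5 dpa, against −0.12, −0.04 and −0.37 in drought and 0.08, 0.04 and 0.11 in control bolls at 0 dpa. Its effect changed by 4.35 ± 0.24, with 4.10 at 5 dpa and −0.25 at 0 dpa, where it did not pass. The effect of NAC4 at 0 dpa was −0.45 on the poly-A scale and −0.78 with the integrity covariate.

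NAC2 (LOC107962533) also had its effect at 5 dpa only, at 2.65 there and 0.03 at 0 dpa, which gave a rise of 2.62 ± 0.11. NAC7 (LOC107909534, chromosome D02, 64340853 to 64341993) reversed instead. It had 1.34, 1.35 and 1.28 in drought and −1.40, −1.47 and −1.28 in control bolls at 5 dpa, against −0.55, −0.49 and −0.44 in drought and 0.49, 0.44 and 0.48 in control bolls at 0 dpa. Its rise was 3.66 ± 0.10 on the probe set used and 2.70 as the mean of its probe sets. NAC6 (0.12 ± 0.11) and NAC10 (−0.29 ± 0.18) did not pass, and NAC10 stood at 0.17 on the poly-A scale.

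**Figure D2:**
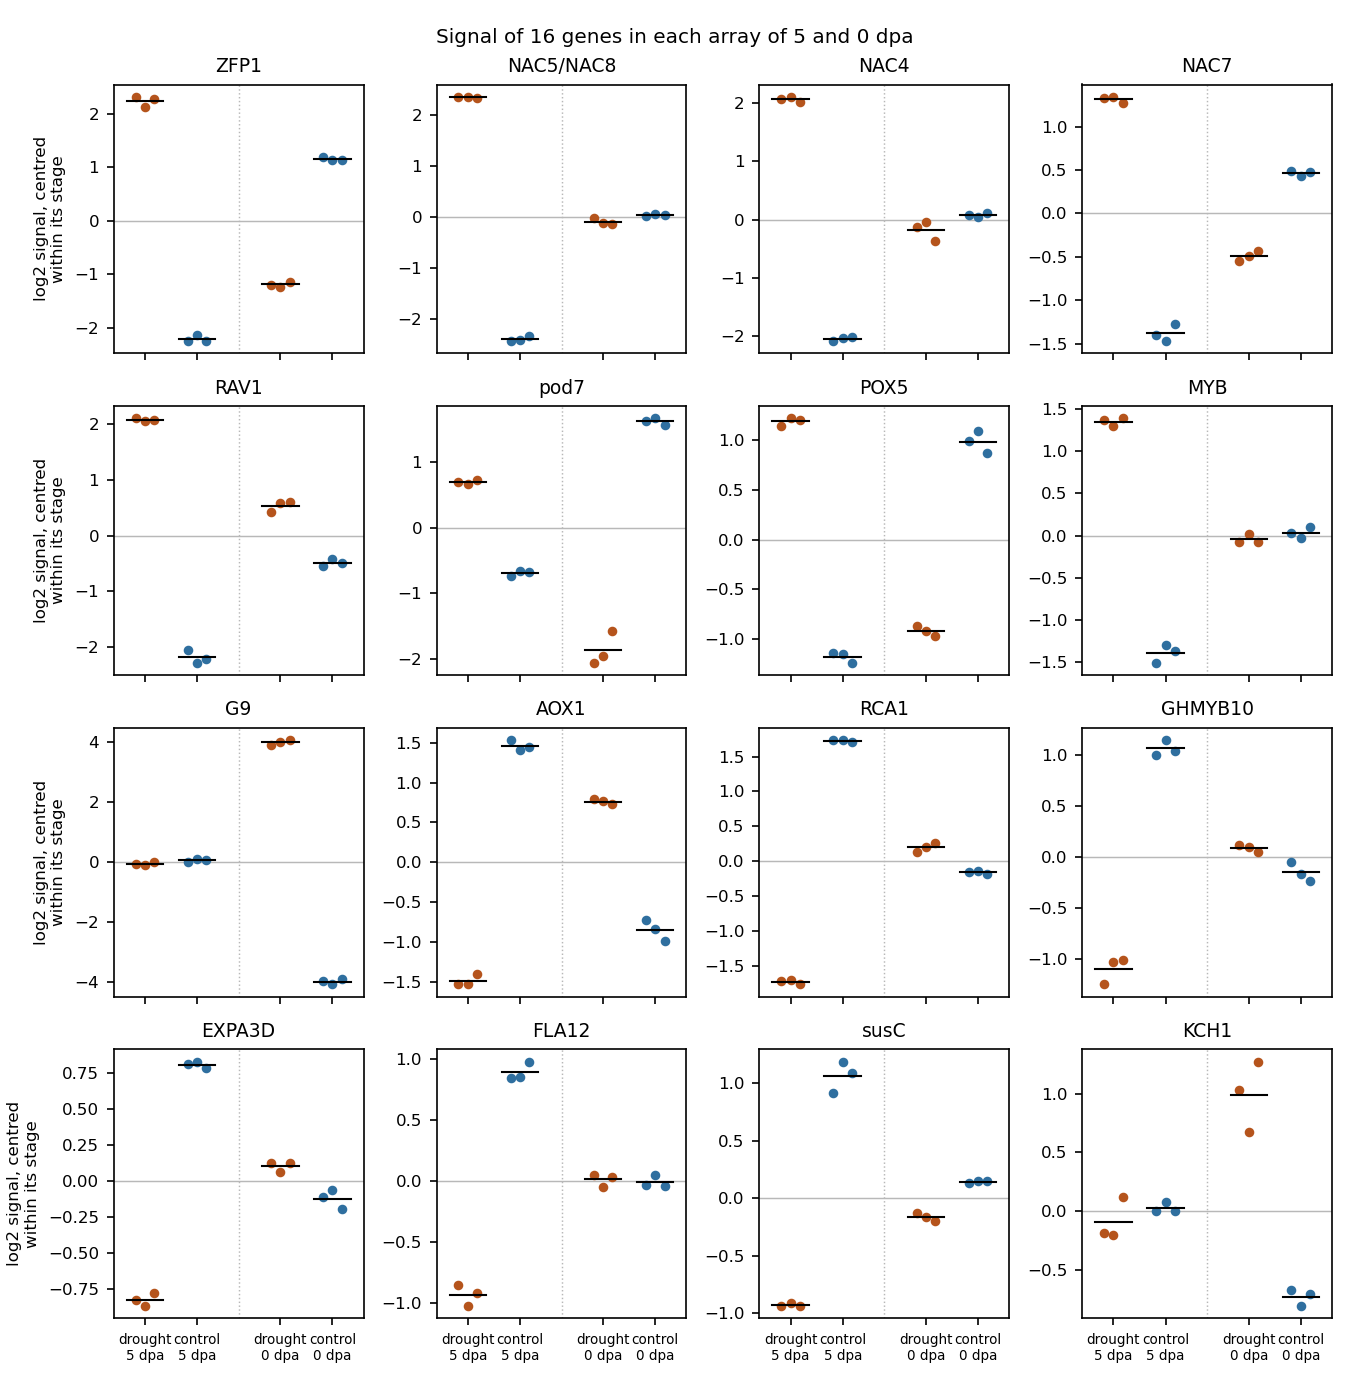
Centred log2 signal (vertical axis, scales differ between panels) of 16 genes in each array, with drought in orange and control in blue, 5 dpa left of 0 dpa, 1 point per array and a line at the mean of 3. ZFP1, NAC7, pod7, POX5, AOX1, RCA1 and GHMYB10 have both stage effects called and drought and control in opposite order, NAC5/NAC8, NAC4, MYB and FLA12 have their large separation at 5 dpa, and G9 and KCH1 have their larger separation at 0 dpa.

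AP2/ERF factors, among them the dehydration-responsive and ethylene-responsive element binding proteins, gave 7 rises and 0 falls among 8 genes, with a median change of 1.19, beside 22.2% rises and 31.1% falls over all probe sets. RAV1 (LOC107946446, chromosome D12, 51524868 to 51526472), whose Arabidopsis relative carries an AP2 and a B3 domain, led them. It had 2.10, 2.04 and 2.07 in drought and −2.04, −2.28 and −2.21 in control bolls at 5 dpa, against 0.42, 0.59 and 0.59 in drought and −0.54, −0.42 and −0.49 in control bolls at 0 dpa. Drought was the higher at both stages, by 4.25 at 5 dpa and by 1.02 at 0 dpa, and the change was 3.23 ± 0.36, or 2.26 as the mean of its probe sets. With the integrity covariate the effect of RAV1 at 0 dpa was −0.20 and did not pass. ERF7 (LOC107941184) rose by 2.54 ± 0.16 and was higher in drought by 1.80 at 5 dpa and lower, at −0.74, at 0 dpa. CBF20, also known as DREB1C (LOC107898106), rose by 0.99 ± 0.06 through its effect at 5 dpa, and the member that did not pass was ERF3 (0.16 ± 0.08). CBF17 (LOC107913841), which is on none of the lists, rose by 3.22 ± 0.14, or by 1.81 as the mean of its probe sets.

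MYB factors divided evenly, with 4 rises and 4 falls among 8 genes, beside 22.2% rises and 31.1% falls over all probe sets. The split was the same with scaling on the spike controls, beside 32.9% and 6.01%. MYB (LOC107909337, chromosome A02, 106341793 to 106343244) had 1.37, 1.30 and 1.39 in drought and −1.51, −1.30 and −1.37 in control bolls at 5 dpa, against −0.08, 0.02 and −0.07 in drought and 0.03, −0.02 and 0.11 in control bolls at 0 dpa. The groups overlapped at 0 dpa, and the change was 2.83 ± 0.14. MYB5 (LOC107912305) rose by 2.68 ± 0.18. The falls were led by GHMYB10 (LOC107951064, chromosome A06, 20216557 to 20217838), with −1.24, −1.02 and −1.0 in drought and 1.0, 1.14 and 1.04 in control bolls at 5 dpa, against 0.12, 0.10 and 0.05 in drought and −0.05, −0.16 and −0.23 in control bolls at 0 dpa. Its effect fell by 2.39 ± 0.11 and reversed, drought being lower at 5 dpa, at −2.15, and higher at 0 dpa, by 0.24, which was 0.04 without passing on the poly-A scale. The cotton fibre regulator myb109 (LOC107961466), known from fibre initials, fell by 1.57 ± 0.14, being lower in drought at both stages, at −1.87 at 5 dpa and −0.29 at 0 dpa.

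Of the homeobox genes, HB4 (LOC107934293) rose by 1.42 ± 0.07 and HOX3 (LOC107904747), known as a regulator of cotton fibre elongation, fell by 1.36 ± 0.13, both through the effect at 5 dpa. Beside 22.2% rises over all probe sets, the WRKY genes WRKY15 (LOC107931629) and WRKY24/WRKY71 (LOC107906829) both rose, by 1.04 ± 0.20 and 0.82 ± 0.12. They did so from different starts, since WRKY15 stood at −0.36 at 0 dpa while WRKY24/WRKY71 was already 1.31 higher in drought then.

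Class III peroxidases are secreted enzymes that oxidise phenolics and can stiffen or loosen walls. The 10 genes on their list gave 7 rises and 2 falls (median 0.73), beside 22.2% rises and 31.1% falls over all probe sets. At 5 dpa 5 of the 10 were higher in drought and 3 lower (24.8% and 33.4% of all probe sets), whereas at 0 dpa 0 were higher and 8 lower (21.4% and 22.9% of all). In pod7 (LOC107936187, chromosome D04, 2183430 to 2185338) the values were 0.70, 0.66 and 0.73 in drought and −0.73, −0.66 and −0.68 in control bolls at 5 dpa, against −2.06, −1.96 and −1.57 in drought and 1.62, 1.67 and 1.57 in control bolls at 0 dpa. Drought was thus 2.61-fold higher at 5 dpa and 11.2-fold lower at 0 dpa, and the change of 4.87 ± 0.12 came mainly from the earlier stage.

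POX5 (LOC107914564, chromosome A10, 85678159 to 85680189) reversed in the same way, with 1.14, 1.22 and 1.20 in drought and −1.14, −1.14 and −1.24 in control bolls at 5 dpa, against −0.87, −0.92 and −0.97 in drought and 0.99, 1.09 and 0.87 in control bolls at 0 dpa. It rose by 4.26 ± 0.11, but by 2.37 as the mean of its 2 probe sets. The gene pod10 (LOC107914313), read by a probe set of antisense design, rose by 2.85 ± 0.15, with an effect of 0.77 at 5 dpa and −2.09 at 0 dpa. The listed peroxidase genes that fell were POX10, by 1.16 ± 0.15, and pox, by 0.85 ± 0.16, and they were lower in drought at both stages. A gene named only peroxidase, which is not on the list, was also called lower at both stages and more so at 5 dpa. POX9 did not pass, with −0.34 ± 0.16 and 0.12 on the poly-A scale. On that scale 7 peroxidase genes rose and 1 fell, and with the integrity covariate 6 rose and 3 fell.

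Late embryogenesis abundant proteins protect cells that lose water, as in ripening seeds. Both listed genes rose, beside 22.2% rises over all probe sets. Lea5-D (LOC107916177) had 1.23, 1.24 and 1.25 in drought and −1.40, −1.36 and −1.23 in control bolls at 5 dpa, against 0.23, 0.15 and 0.17 in drought and −0.19, −0.15 and −0.22 in control bolls at 0 dpa. Drought was the higher at both stages without overlap, and the effect grew by 2.20 ± 0.08. Lea14-A (LOC107922715) rose by 1.01 ± 0.10.

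Of the 5 genes on the ethylene synthesis list 4 rose and 1 fell (median 1.50), beside 22.2% rises and 31.1% falls over all probe sets. A gene named ACS, without a number, is not on that list. Its change was called too, with drought called higher at 5 dpa only. ACC synthases make the precursor of ethylene, 1-aminocyclopropane-1-carboxylate (ACC), and ACC oxidases turn it into the hormone. The synthase gene ACS3/ACS6 (LOC107947061) rose by 1.79 ± 0.09, from an effect that was positive at both stages, 3.01 at 5 dpa and 1.23 at 0 dpa. The oxidase gene ACO3 (LOC107915412, chromosome D08, 6528455 to 6529917) reversed, with 0.78, 0.81 and 0.78 in drought and −0.90, −0.78 and −0.78 in control bolls at 5 dpa, against −0.29, −0.29 and −0.30 in drought and 0.29, 0.37 and 0.29 in control bolls at 0 dpa. The change was 2.22 ± 0.07. The genes named ACO1 went apart, LOC107905899 rising by 1.50 ± 0.09 while the effect of LOC107954048 fell by 1.13 ± 0.17. SAMDC (LOC107887408), for S-adenosylmethionine decarboxylase, whose product polyamines draw on the same substrate as ethylene, rose by 0.57 ± 0.05.

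Of the gibberellin genes the receptor genes GID1-2 (2.02 ± 0.35) and GID1-4 (LOC107899135, 1.50 ± 0.14) rose. GAI2 (LOC107918217), for a DELLA repressor of that hormone's response, fell by 0.54 ± 0.08, and stood at −0.09 without passing on the poly-A scale. Among 6 genes on the auxin list 4 rose and 1 fell (median 0.41), beside 22.2% rises and 31.1% falls over all probe sets. Of the 4, the lipid transfer protein gene FSLTP2 (0.51 ± 0.10) is there only through a synonym it shares with the auxin gene family GH3. Aux3 (LOC107906148) rose by 0.51 ± 0.07. ARF1 (LOC107914201), for an auxin response factor, fell by 0.89 ± 0.07, or by 0.43 without passing on the poly-A scale.

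Lox1 (LOC107919998), for a lipoxygenase, rose by 1.93 ± 0.07 and reversed, with effects of 1.51 at 5 dpa and −0.42 at 0 dpa. MFP, for an enzyme of fatty acid beta-oxidation, had a change of 0.29 ± 0.24 without passing. Of the 5 calcium signalling genes CBL3 rose by 0.25 ± 0.10, or by 0.20 without passing with the integrity covariate, and CBL1 (LOC107912199) and the annexin gene Anx1 (LOC107913673) fell by 0.67 ± 0.17 and 0.24 ± 0.05. On the poly-A scale Anx1 turned to 0.22 and CBL1 did not pass.

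The list of antioxidant enzymes gave 0 rises and 3 falls among 4 genes, beside 22.2% rises and 31.1% falls over all probe sets. With scaling on the spike controls it gave 0 calls. The ascorbate peroxidase genes gAPX and sAPX, which are not on that list, also had called changes. In drought gAPX was called higher at 5 dpa and lower at 0 dpa, while sAPX was called higher at 0 dpa only. The catalase gene CAT2 (LOC107943729) fell by 0.60 ± 0.11 and 1 glutathione S-transferase gene (LOC107948407) by 0.68 ± 0.08, and on the poly-A scale these were −0.15 and −0.22. The flavonoid genes divided, with CHS3 (LOC107912380), a chalcone synthase gene, rising by 0.57 ± 0.07 through its effect at 0 dpa (−0.63, against −0.06 at 5 dpa). The reductase gene DFR (LOC107957957) fell by 0.61 ± 0.08, or by 0.16 without passing on the poly-A scale. The gene cdn1 (LOC107903500), whose cadinene synthase begins the path to gossypol, rose by 0.72 ± 0.22, and this was 0.44 without passing with the integrity covariate (limma adjusted p = 0.116).

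The largest named fall was that of G9 (LOC107942091, chromosome A04, 1935312 to 1936899), for a polygalacturonase known from cotton pollen that splits wall pectin. It had −0.08, −0.09 and −0.01 in drought and 0.01, 0.09 and 0.07 in control bolls at 5 dpa, against 3.90, 4.0 and 4.05 in drought and −3.95, −4.07 and −3.90 in control bolls at 0 dpa. The drought and control values lay side by side at 5 dpa and were 248-fold apart at 0 dpa, so that the whole change of −8.07 ± 0.11 came from the day of flowering. Its probe set has a suffix that marks possible binding to related transcripts. The part of pollen or other flower tissue in this difference was not tested. The other pectin enzyme gene, Pel, for a pectate lyase, did not pass (−0.25 ± 0.15, and 0.21 on the poly-A scale).

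AOX1 (LOC107939301, chromosome A12, 109254837 to 109256399) codes for the alternative oxidase of mitochondria, which passes electrons to oxygen without pumping protons, and was read by an antisense probe set. It had −1.53, −1.53 and −1.40 in drought and 1.53, 1.40 and 1.44 in control bolls at 5 dpa, against 0.80, 0.76 and 0.72 in drought and −0.72, −0.83 and −0.99 in control bolls at 0 dpa. Drought was 7.73-fold lower at 5 dpa and 3.06-fold higher at 0 dpa, a change of −4.56 ± 0.15.

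RCA1 (LOC107942112, chromosome A10, 114858394 to 114861427), for Rubisco activase, which keeps the carbon-fixing enzyme of green tissue active, had −1.73, −1.71 and −1.77 in drought and 1.73, 1.74 and 1.71 in control bolls at 5 dpa, against 0.14, 0.20 and 0.27 in drought and −0.16, −0.14 and −0.19 in control bolls at 0 dpa. It was 11-fold lower in drought at 5 dpa and 1.29-fold higher at 0 dpa, a change of −3.83 ± 0.19. RCA1 was the only green-tissue marker with a named probe set, and whether the amount of green tissue differed between the groups was not tested.

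**Figure D3:**
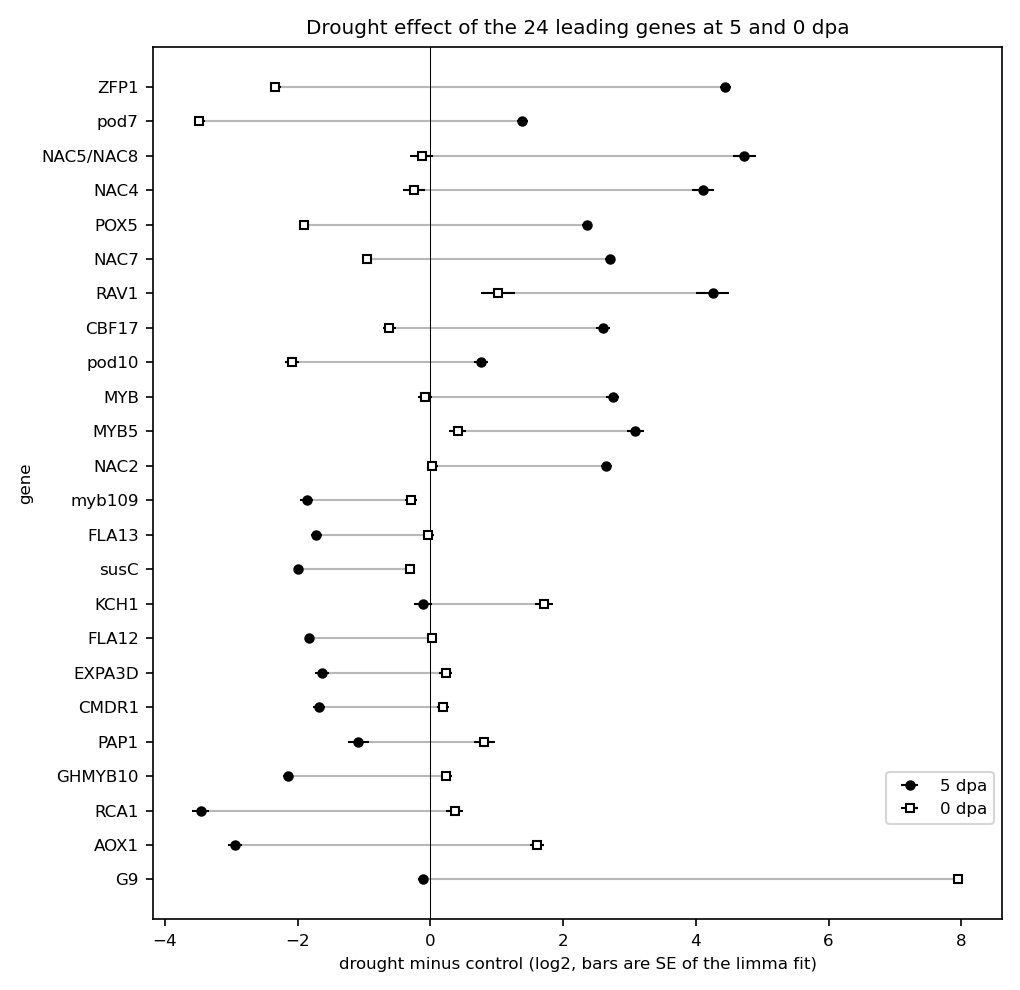
Drought minus control (horizontal axis, log2) at 5 dpa (filled circles) and 0 dpa (open squares) for the genes with the 12 largest rises and 12 largest falls, ordered by the change, with bars for the SE of the fit. NAC5/NAC8, NAC4, MYB, NAC2, FLA12 and FLA13 sit near 0 at 0 dpa, while G9 and KCH1 sit near 0 at 5 dpa.

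All 4 expansin genes, for proteins that loosen the wall, fell (median −1.24), beside 31.1% falls over all probe sets. With scaling on the spike controls all 4 fell too, beside 6.01%. EXPA3D (LOC107904848, chromosome D05, 28073141 to 28074489) had −0.83, −0.87 and −0.78 in drought and 0.81, 0.83 and 0.78 in control bolls at 5 dpa, against 0.12, 0.06 and 0.12 in drought and −0.11, −0.06 and −0.20 in control bolls at 0 dpa. Its effect fell by 1.86 ± 0.14, and that of the fibre expansin gene EXP1 (LOC107914543) by 1.24 ± 0.09. The remaining EXPA4 and EXPA11A stood at −1.24 and −1.21.

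Xyloglucan endotransglucosylases, which cut and rejoin the xyloglucan chains between cellulose fibrils, did not move as one. XTH3 (LOC107913353) rose by 1.90 ± 0.14, and it was 1.48 higher in drought at 5 dpa and lower, at −0.42, at 0 dpa. XTH1 (LOC107911611) fell by 0.76 ± 0.14 and XTH by 0.75 ± 0.23, and on the poly-A scale neither passed (−0.31 and −0.29).

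Of 12 genes for fasciclin-like arabinogalactan proteins, which sit at the cell surface and in the wall, 2 rose, 6 fell and 4 did not pass (median −0.37). With scaling on the spike controls 2 rose and 4 fell, and the median turned to 0.09. Over all probe sets the shares were 22.2% rises and 31.1% falls, or 32.9% and 6.01% with that scaling. FLA12 (LOC107945624, chromosome A12, 79128514 to 79130085) had −0.85, −1.02 and −0.92 in drought and 0.85, 0.85 and 0.98 in control bolls at 5 dpa, against 0.05, −0.05 and 0.04 in drought and −0.04, 0.05 and −0.04 in control bolls at 0 dpa. The groups overlapped at 0 dpa, and the change was −1.85 ± 0.09, or −1.02 as the mean of its 2 probe sets. FLA13 (LOC107911922) fell by 1.69 ± 0.11, likewise through 5 dpa. The 2 that rose were FLA4 (0.54 ± 0.08) and FLA16 (0.37 ± 0.15), and FLA16 did not pass with the integrity covariate (0.25).

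Of 4 genes for cellulose and other wall polysaccharides 3 fell, and 0 did so on the poly-A scale, beside 31.1% and 6.01% of all probe sets. The cellulose synthase gene CesA1 (LOC107909647) fell by 0.71 ± 0.15, or by 0.36 as the mean of its 2 probe sets, and the cellulose synthase-like gene CslD1 (LOC107925659) by 0.96 ± 0.19. On the poly-A scale they stood at −0.25 and −0.50 without passing. Sucrose synthase supplies the sugar nucleotide for cellulose. Its gene susC (LOC107901030, chromosome D06, 15517455 to 15521198) had −0.94, −0.92 and −0.94 in drought and 0.92, 1.19 and 1.09 in control bolls at 5 dpa, against −0.13, −0.17 and −0.20 in drought and 0.13, 0.15 and 0.15 in control bolls at 0 dpa. It was lower in drought at both stages, and the effect fell by 1.69 ± 0.08. Sus1 (LOC107958826) fell by 0.29 ± 0.06, which turned to 0.17 on the poly-A scale, and SusA1 did not pass (0.61 ± 0.54), though it rose by 1.78 with the integrity covariate and by 1.06 on the poly-A scale.

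Of the cytoskeleton genes, all 8 for tubulins and kinesins fell (median −0.93), beside 31.1% of all probe sets, and 4 of them with scaling on the spike controls, beside 6.01%. BTub4 (LOC107936697) and BTub3 (LOC107925867), for the beta subunit of microtubules, fell by 1.31 ± 0.08 and 1.29 ± 0.06. They differed in their start, since drought was lower at 0 dpa for BTub4 (−0.17) and higher for BTub3 (0.24), but neither passed on the poly-A scale (−0.37 and 0.03). The kinesin gene KCH1 (LOC107927185, chromosome D11, 62097939 to 62104094), for a motor that links microtubules and actin, had −0.19, −0.20 and 0.12 in drought and −0.00, 0.08 and 0.00 in control bolls at 5 dpa, against 1.03, 0.67 and 1.27 in drought and −0.67, −0.80 and −0.70 in control bolls at 0 dpa. The groups overlapped at 5 dpa, and the change of −1.83 ± 0.19 came from 0 dpa. Of 5 actin genes 3 fell, and 0 with scaling on the spike controls, beside 31.1% and 6.01% of all probe sets. With that scaling their median was 0.27 in place of −0.19. ACT7 (LOC107959435) fell by 0.53 ± 0.08, and on the poly-A scale it stood at −0.07 without passing. ACT10 (LOC107911663) fell by 0.39 ± 0.12, which turned to 0.070 on that scale.

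All 4 genes for sterols and brassinosteroid fell (median −0.98), beside 31.1% of all probe sets, and 2 of them with scaling on the spike controls, beside 6.01%. The sterol methyltransferase genes SMT2-1 (LOC107959396) and SMT1 (LOC107950679) fell by 1.11 ± 0.06 and 0.79 ± 0.07, and SMT1 was −0.33 on the poly-A scale, where it did not pass. All 3 cyclopropane fatty acid synthase genes fell and 1 of them on the poly-A scale, beside the same shares. CPA-FAS-1 (LOC107933118) fell by 1.42 ± 0.26 and CPA-FAS-2 (LOC107936133) by 0.81 ± 0.09, or by 0.35 without passing on that scale. Ketoacyl-CoA synthases build the very-long-chain fatty acids of membranes and cuticle. Of their 4 genes 2 fell, and 0 did so on the poly-A scale, beside 31.1% and 6.01% of all probe sets. KCS12 (LOC107928969) and FDH (LOC107893385) fell by 1.01 ± 0.18 and 0.93 ± 0.10, and by 0.55 and 0.47 without passing on that scale.

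Fibre marker genes did not move as one, with 3 rises, 2 falls and 3 that did not pass among 8 genes (median −0.00). On the poly-A scale 3 rose and 0 fell, with a median of 0.45. Over all probe sets 22.2% rose and 31.1% fell, or 32.9% and 6.01% on that scale. E6 (LOC107913945), an abundant transcript of elongating fibre, fell by 1.02 ± 0.12 and H6L (LOC107908860) by 1.04 ± 0.14, while on the poly-A scale these were −0.56 and −0.58 without passing. FSLTP2 rose by 0.51 ± 0.10 and Rac13, for a small GTPase known from fibre, did not pass (−0.08 ± 0.13, and 0.38 on the poly-A scale). Of 4 ribosomal protein genes 3 fell, led by RPS16 (LOC107908898) with 1.20 ± 0.12, and 1 did so with scaling on the spike controls, beside 31.1% and 6.01% of all probe sets. RPS4 (LOC107938968) fell by 0.56 ± 0.09, or by 0.10 without passing on the poly-A scale. PEPC1 (LOC107888527), for phosphoenolpyruvate carboxylase, which makes malate, an osmotic solute, fell by 0.22 ± 0.07 and turned to 0.24 on that scale. Among the large falls were also those of PAP1 (LOC107905479), at −1.90 ± 0.22, and CMDR1 (LOC107942025), at −1.87 ± 0.13.

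**Figure D4:**
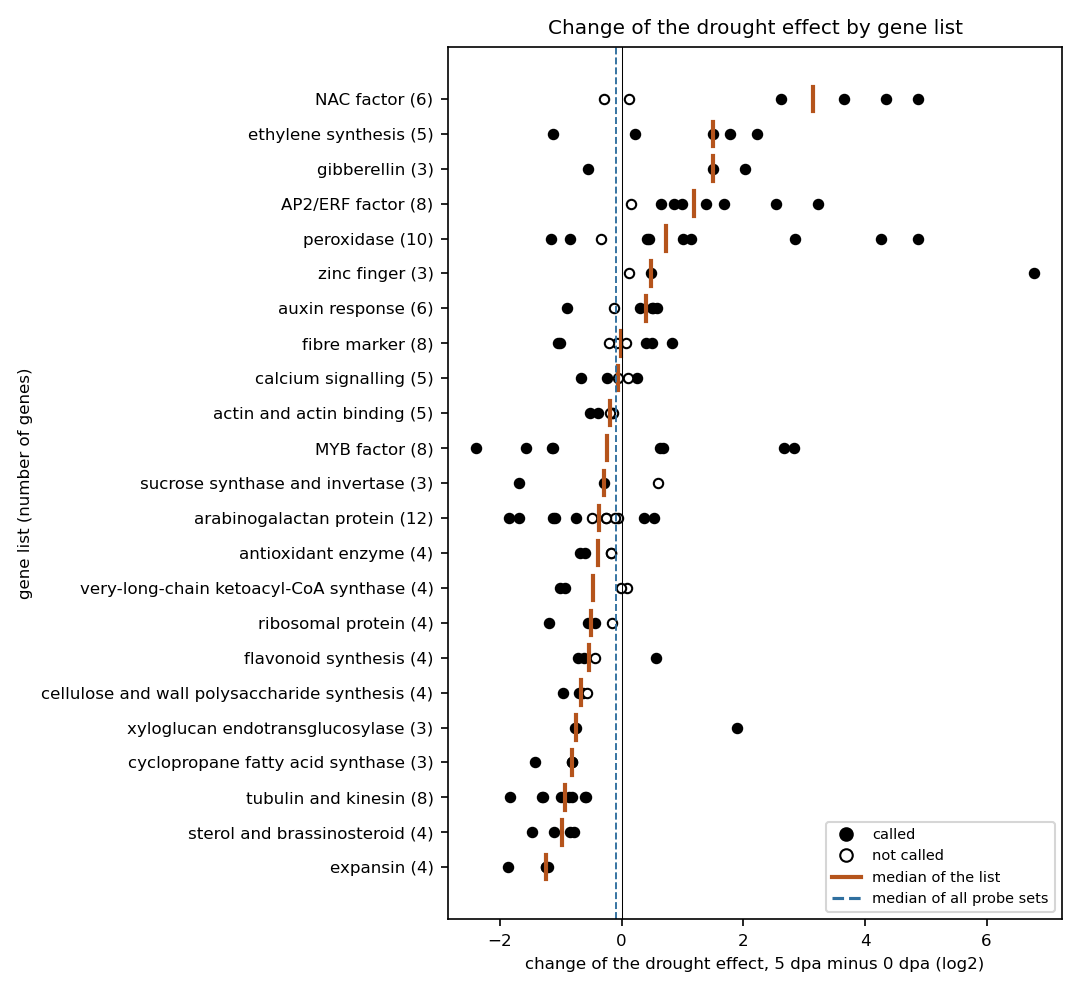
Change of the drought effect (horizontal axis, 5 dpa minus 0 dpa, log2) of each gene on the lists with at least 3 genes, filled where called and open where not, with the median of the list in orange and that of all probe sets as a dashed line. NAC, ethylene and AP2/ERF genes lie mostly to the right and expansin, sterol, tubulin and kinesin genes all to the left, before the shift of 0.46 that scaling on the spike controls adds to every point.

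Both stage effects were called in opposite directions at 2 sets of probe sets. At 1514 (11.9% of the calls, 6.32% of all probe sets) drought was higher at 5 dpa and lower at 0 dpa, and at 1278 (10.0% of the calls, 5.33% of all) it was lower at 5 dpa and higher at 0 dpa. The first set holds 27 genes with a name, among them ZFP1, pod7, POX5, pod10, NAC7, CBF17, ERF7, ACO3, Lox1, XTH3 and GID1-4, and the second 21, among them AOX1, RCA1, GHMYB10, PAP1, BTub3, ARF1, SMT1 and XTH1. Scaled on the spike controls, the first set held 1431 probe sets and the second 113, and with the integrity covariate they held 636 and 443. Of the 13 genes of the first set selected by the naming rule, 12 stayed opposite with both effects called on the poly-A scale, SAMDC being the exception, and 9 with the covariate, where ERF7, XTH3, GID1-4 and WRKY15 no longer passed at 0 dpa. Of the 8 of the second set only AOX1 and PAP1 did so on the poly-A scale, and only AOX1, BTub3 and ARF1 with the covariate. With the covariate the 0 dpa effects of RCA1 (0.63), SMT1 (0.20) and GHMYB10 (0.24) were no smaller than without it but did not pass, while that of PAP1 was 0.02. The effect at 0 dpa turned sign for ARF1 (−0.06) and SMT1 (−0.05) on the poly-A scale and for XTH1 (−0.28) with the covariate, none of them passing.

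Among the other called changes the most common was a drought effect that was lower at 5 dpa only, at 3286 probe sets, followed by higher at 5 dpa only, at 1841. This order turned on the poly-A scale, with 804 lower and 3716 higher at 5 dpa only. Growth of an effect in its own direction was more frequent than its decline, on the poly-A scale too. At 1270 probe sets drought was lower at both stages and more so at 5 dpa, as for susC, myb109 and BTub4, against 177 where it was less so. At 842 it was higher at both and more so at 5 dpa, as for RAV1, Lea5-D and ACS3/ACS6, against 147 where it was less so. Of these 6 genes, BTub4 and Lea5-D did not pass at 0 dpa on the poly-A scale, and RAV1 and myb109 did not with the integrity covariate. An effect called at 0 dpa only was found at 1222 higher probe sets, G9 and KCH1 among them, and at 841 lower ones, CHS3 and cdn1 among them.

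The arrays of 10 dpa, from ovules bearing fibre, do not enter the contrast, although all 24 arrays share its estimate of the spread, and show where the same probe sets stood later. Of the 1779 rises of at least 2-fold, 1530 (86.0%) were called higher in drought at 10 dpa and 91 (5.12%) lower, beside 28.5% and 31.8% of all probe sets. Of the 1552 falls of that size, 126 (8.12%) were called higher and 1078 (69.5%) lower. At 20 dpa the rises were 34.1% higher and 41.9% lower, and the falls 36.0% higher and 36.5% lower, beside 26.0% and 34.0% of all probe sets. Poly-A spike controls stood 1.28 higher in drought arrays at 10 dpa and 1.11 higher at 20 dpa. With that difference taken off, without a test, 55.3% of the rises had an effect above 0 at 10 dpa in place of 91.9%, beside 6.70% in place of 47.4% of all probe sets, and of the falls 2.64% in place of 17.9%. At 20 dpa 13.7% of the rises in place of 43.7% and 11.9% of the falls in place of 49.3% were then above 0, beside 6.19% in place of 43.0% of all probe sets.

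The leading genes took different courses at the later stages. NAC5/NAC8 had effects of −0.13 at 0 dpa, 4.73 at 5 dpa, 7.71 at 10 dpa and −2.26 at 20 dpa, and ZFP1 had −2.34, 4.44, 6.97 and 0.94 at those stages. ACO3 stood at 1.48 at 10 dpa and −3.45 at 20 dpa, and POX5 at 2.19 and −3.58. Of the falls, AOX1 and RCA1 were near 0 at 10 dpa, at −0.10 and −0.30, and G9 at 0.01, while FLA13 and EXPA3D were lower still, at −4.38 and −2.93. Subtracting the spike control difference of 1.28 makes each of these 10 dpa effects lower by that amount, which leaves those of NAC5/NAC8, ZFP1, POX5 and ACO3 above 0. At 20 dpa the difference of 1.11 exceeds the effect of ZFP1, which is then below 0.

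Probe sets without a gene held changes larger than any named rise. The largest rise of all was 8.91 ± 0.21, with effects of 4.69 at 5 dpa and −4.21 at 0 dpa, and the next 8.62 ± 0.25, with 6.91 and −1.71. The largest fall was −9.29 ± 0.20, with effects of −2.65 at 5 dpa and 6.64 at 0 dpa, and the next was −8.29 ± 0.19, with −0.02 and 8.27. That second fall has the pattern of G9, with drought and control values close together at 5 dpa and far apart at 0 dpa, although they overlapped at 5 dpa here and not for G9. Of the 23973 probe sets 23230 had no gene, so the named genes describe a small part of the array.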

How the data were processed

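Signals of the Affymetrix cotton GeneChip were used as the authors deposited them, in 1 table of 24132 probe sets by 24 arrays (8 groups of 3 biological replicates, per the labels). The deposited values were made by RMA, per the submitters' processing notes, but its version and the arrays it was run on together are not stated there. As RMA returns log2 values, log2 was taken as the unit of the deposited table. Each probe set had a median of 0 over the 6 arrays of its stage, to within 5e-07, which removes levels and leaves differences within a stage. An array has no count depth, and the number of arrays limits the precision.

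limma 3.58.1 in R 4.3.3 fitted the 8 group means to all 24 arrays (16 residual degrees of freedom, eBayes), with a single estimate of the spread. The contrast was (drought minus control at 5 dpa) minus (drought minus control at 0 dpa). P-values are two-sided, adjusted by Benjamini-Hochberg over 23973 probe sets and called under 0.05. Tested on data simulated with the observed spread, 34% of changes of 0.5, 90% of those of 1 and 100% of those of 2 were recovered, with 9 false calls. Only 50 probe sets were changed at each size, with independent noise and no offset between arrays. As 53.3% of probe sets were called in the data, these shares do not carry over to them.

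Genes came from the platform annotation (697 probe sets with 1 gene, 46 with several, 23230 with none) and names from RefSeq synonyms (246 of 520 genes; 243 used). A gene was read by 1 probe set, preferring sense design, then the more specific suffix, then the lower ID. Named are the 12 largest called rises and 12 largest called falls and, of each gene list with a call, the 2 called members with the smallest p. Other genes named as examples of a list were chosen after their values were seen. Members and lists were chosen with earlier results of these data known. Of the 69 genes selected by the rule, 41 were read by probe sets that can bind related transcripts and 6 by antisense ones, and of 67 genes with 2 or more called probe sets 14 had calls in opposite directions. Promoter and protein sequences were not used here. Alternatives were the arrays in the fit, replicate blocks, 2 scalings, an integrity covariate from 6 pairs of 5′ and 3′ probe sets, robust moderation, array weights, a threshold of 0.01, the mean of a gene's probe sets and leaving out each array. Same-numbered drought and control arrays had correlations of their deviations from −0.08 to 0.01, so the numbers were not taken to pair them.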

Additional observations from a re-analysis of the deposited data

Results flagged for a closer look

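The drought effect differed between 5 and 0 dpa at 12768 probe sets, by the limma test of the difference itself. It did so in opposite directions, with both stage effects called, for 21 of the genes selected by the naming rule. In 13 of them drought was higher at 5 dpa and lower at 0 dpa: ZFP1 (6.78), pod7 (4.87), POX5 (4.26), NAC7 (3.66), CBF17 (3.22), pod10 (2.85), ERF7 (2.54), ACO3 (2.22), Lox1 (1.93), XTH3 (1.90), GID1-4 (1.50), WRKY15 (1.04) and SAMDC (0.57). In 8 of them it was lower at 5 dpa and higher at 0 dpa: AOX1 (−4.56), RCA1 (−3.83), GHMYB10 (−2.39), PAP1 (−1.90), BTub3 (−1.29), ARF1 (−0.89), SMT1 (−0.79) and XTH1 (−0.76). Opposite directions with both effects called remained for 12 of the 13 and 2 of the 8 on the poly-A scale, and for 9 of the 13 and 3 of the 8 with the integrity covariate.

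Signals of control probe sets, which are outside the tests, also differed between drought and control arrays without overlap. The 5′ minus 3′ signal was 0.30 higher in drought at 5 dpa and 0.66 higher at 0 dpa, and the poly-A spike controls were 0.20 higher at 0 dpa.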

How the results depend on the processing

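Leaving out each array in turn gave 12058 to 12357 called changes, of which 5077 to 5175 rose and 6930 to 7246 fell, with 1763 to 1793 rises and 1521 to 1613 falls of at least 2-fold. The drought effect was then called at 13181 to 13971 probe sets at 5 dpa and at 9088 to 10526 at 0 dpa, and the opposite directions at 1355 to 1479 (higher at 5 dpa) and 1031 to 1236 (lower at 5 dpa). All 69 genes selected by the naming rule, which takes only called genes, kept direction and call without any 1 array. Scaling on the poly-A spike controls gave 9338 called changes, with 1441 falls, 3472 rises and 494 falls of at least 2-fold, 6246 probe sets called at 0 dpa and 113 lower at 5 dpa and higher at 0 dpa. By construction it shifts every change alike. It also alters the spread between replicate arrays, so a call can be lost without a smaller effect. BTub4 at 0 dpa passed at −0.17 but not at −0.37 on that scale. The scaling reversed PEPC1 (0.24), Anx1 (0.22), Sus1 (0.17) and ACT10 (0.070), and 17 further named falls no longer passed. The 5′ minus 3′ covariate gave 3686 called at 0 dpa, 636 higher at 5 dpa and lower at 0 dpa, and 443 the other way, and its named loss was cdn1 (0.44); the cause was not tested. The replicate block within stage gave 12374 called changes and that across stages 12757, with no named call changed. Under the remaining alternatives the called changes ran from 10382 at the threshold of 0.01 to 14525 with array weights. Of 1394 values of named genes under the alternatives, 1372 kept direction and call, but these genes had been chosen for their called changes.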

Other observations

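Some genes outside the lists, picked with their values in view, also rose. The mitogen-activated protein kinase gene MPK3 (LOC107959059) rose by 2.62 ± 0.20, or by 1.90 as the mean of its 6 probe sets, with effects of 2.07 at 5 dpa and −0.55 at 0 dpa. MAPKKK (LOC107959605), for a kinase of the same cascades, rose by 1.31 ± 0.11, or by 0.65 as the mean of its probe sets. NHX1 (LOC107891968), for a sodium/proton exchanger of the vacuole, rose by 1.88 ± 0.09 and SOS2 (LOC107962610), a kinase gene known from salt tolerance in Arabidopsis, by 0.52 ± 0.06. All of these were called in opposite directions at the stages, higher in drought at 5 dpa and lower at 0 dpa, although MAPKKK was at −0.04 at 0 dpa with the integrity covariate.

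Of genes chosen in the same way that act in fatty acid synthesis in plastids, KASIII (LOC107890650) fell by 0.60 ± 0.08, KAS2-1 (LOC107893372) by 0.57 ± 0.06 and the desaturase gene sad1 (LOC107914399) by 0.52 ± 0.07, but with scaling on the spike controls they stood at −0.15, −0.12 and −0.06 without passing. The seed storage protein genes LegA, LEGB and vicB_At did not pass, at −0.16 ± 0.15, −0.11 ± 0.09 and −0.09 ± 0.12.

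Probe sets designed from Gossypium raimondii sequences, by their Gra prefix, were called less often than those designed from G. hirsutum, at 41.2% of 7068 against 58.3% of 16800, and 28.8% of their calls were rises against 45.5%. This split was not tested.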
